A study of Mus musculus with 13 samples.

Results

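Sox5 and Sox6 encode transcription factors that work beside Sox9 in cartilage, and the Sox9 peaks around these genes were described here. The members were the Sox9 ChIP-seq peaks whose centre lay in a fixed window around each gene on the mouse build mm9, chr6:143750000-144750000 for Sox5 and chr7:122580000-123220000 for Sox6. They numbered 96 of the 45096 peaks in the rib and nasal lists, with 67 of 27656 rib peaks and 29 of 17440 nasal peaks. The Sox5 window held 41 rib and 19 nasal peaks and the Sox6 window 26 rib and 10 nasal peaks. Both groups were untreated wild-type ICR mice, and the chondrocytes had been freed by enzyme digestion from rib at postnatal day 1 or from nasal septum at embryonic day 17.5. Each tissue had 1 Sox9 library, and the labels do not say whether animals were pooled. The submitters also divided the rib list into a Class I and a Class II part, and the labels do not define these classes. Tissue and stage differ together between the lists, no replicate check was possible, and the lists give positions without height or read depth. Intervals below are therefore 95% exact binomial intervals that cover counting error alone, peaks near each other are not independent, and no test between the tissues was made.

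Sox5 and Sox6 belong to the SoxD group of HMG-box factors. They pair through a coiled-coil domain and lack a transactivation domain of their own. In mouse chondrocytes they bind near Sox9 at enhancers of cartilage matrix genes such as Col2a1 and Acan and increase the activity of Sox9 there. Mice that lack both genes form very little cartilage matrix, and in mouse limb buds the expression of Sox5 and Sox6 depends on Sox9. The peaks described here are thus Sox9 peaks near the genes of its own partners. Expression was not measured in these lists, so neither the level of Sox5 and Sox6 nor that of chondrocyte markers could be checked.

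No mm9 sequence was used here, so bases under the peaks cannot be shown. To give the letters that a SOX factor can meet at these genes, promoters of the 2 genes were taken from RefSeq on another build, GRCm38.p6, each from 250 bases before a transcription start to 50 bases after it. The table held 1 promoter for Sox5 and 6 for Sox6. RefSeq lists 4 curated transcripts of Sox5, so the promoter searched need not be its main one. Match counts are therefore not compared between the genes. They were searched on both strands for ACAAAG and ACAATG, which are SOX core motifs and do not overlap each other in the sequences shown. The Sox5 promoter and the Sox6 promoters with the most matches are printed, minus strand, with matches in capitals (CTTTGT and CATTGT are the same motifs read on the other strand).
Sox5 promoter, chr6:143947057-143947356 (GRCm38.p6): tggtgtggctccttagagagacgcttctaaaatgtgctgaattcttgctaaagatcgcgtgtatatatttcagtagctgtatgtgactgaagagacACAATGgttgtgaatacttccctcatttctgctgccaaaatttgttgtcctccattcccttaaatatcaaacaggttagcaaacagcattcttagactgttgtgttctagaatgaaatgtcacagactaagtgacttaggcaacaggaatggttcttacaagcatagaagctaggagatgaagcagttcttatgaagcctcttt
Sox6 promoter 3, chr7:115995037-115995336 (GRCm38.p6): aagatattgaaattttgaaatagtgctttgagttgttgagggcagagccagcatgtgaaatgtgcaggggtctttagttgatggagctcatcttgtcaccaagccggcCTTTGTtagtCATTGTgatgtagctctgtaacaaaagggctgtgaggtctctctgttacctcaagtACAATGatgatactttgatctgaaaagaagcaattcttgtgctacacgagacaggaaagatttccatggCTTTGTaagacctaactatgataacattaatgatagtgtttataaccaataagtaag
Sox6 promoter 5, chr7:115824661-115824960 (GRCm38.p6): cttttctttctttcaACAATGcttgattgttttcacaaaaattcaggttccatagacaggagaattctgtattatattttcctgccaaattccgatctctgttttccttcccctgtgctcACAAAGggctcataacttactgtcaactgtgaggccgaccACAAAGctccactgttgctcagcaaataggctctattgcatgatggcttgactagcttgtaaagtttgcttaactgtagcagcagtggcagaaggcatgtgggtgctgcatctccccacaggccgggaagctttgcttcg
The 1 Sox5 promoter searched held 1 match, an ACAATG. Sox6 promoter 3 held 4 matches and promoter 5 held 3, and 3 of the other 4 Sox6 promoters held 1 match each. Of 32851 promoters in the table, 9394 (28.6%) held at least 1 match, 252 at least 3 and 45 at least 4. A match describes letters and is no sign of binding, and GRCm38.p6 positions are not on the scale of the mm9 peaks, so no peak was placed on a promoter.

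Sox9 peaks lay more densely in both windows than over the lists as a whole. Rib peaks stood at 41 per Mb in the Sox5 window and 40.6 per Mb in the Sox6 window, against 10.5 per Mb over the whole rib list. Nasal peaks stood at 19 per Mb in the Sox5 window and 15.6 per Mb in the Sox6 window, against 6.62 per Mb over the whole nasal list. The densities of both lists thus exceeded the average of their own list at both genes.

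How often stretches of this size are as rich was read from tiles that cover each chromosome. Of 2626 tiles of 1000 kb, 45 (1.71%) held at least the 41 rib peaks of the Sox5 window, and 229 (8.72%) held at least its 19 nasal peaks. The median tile had 7 rib and 4 nasal peaks. Of 4105 tiles of 640 kb, 126 (3.07%) held at least the 26 rib peaks of the Sox6 window, and 621 (15.1%) held at least its 10 nasal peaks. Here the median tile had 4 rib and 2 nasal peaks. Tiles include gene-poor and unmapped stretches, whereas the windows were set around genes known to matter in cartilage. On chromosome 6 alone, 3 of 149 tiles reached the rib count of Sox5, and on chromosome 7 alone, 9 of 238 reached that of Sox6.

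**Figure D1:**
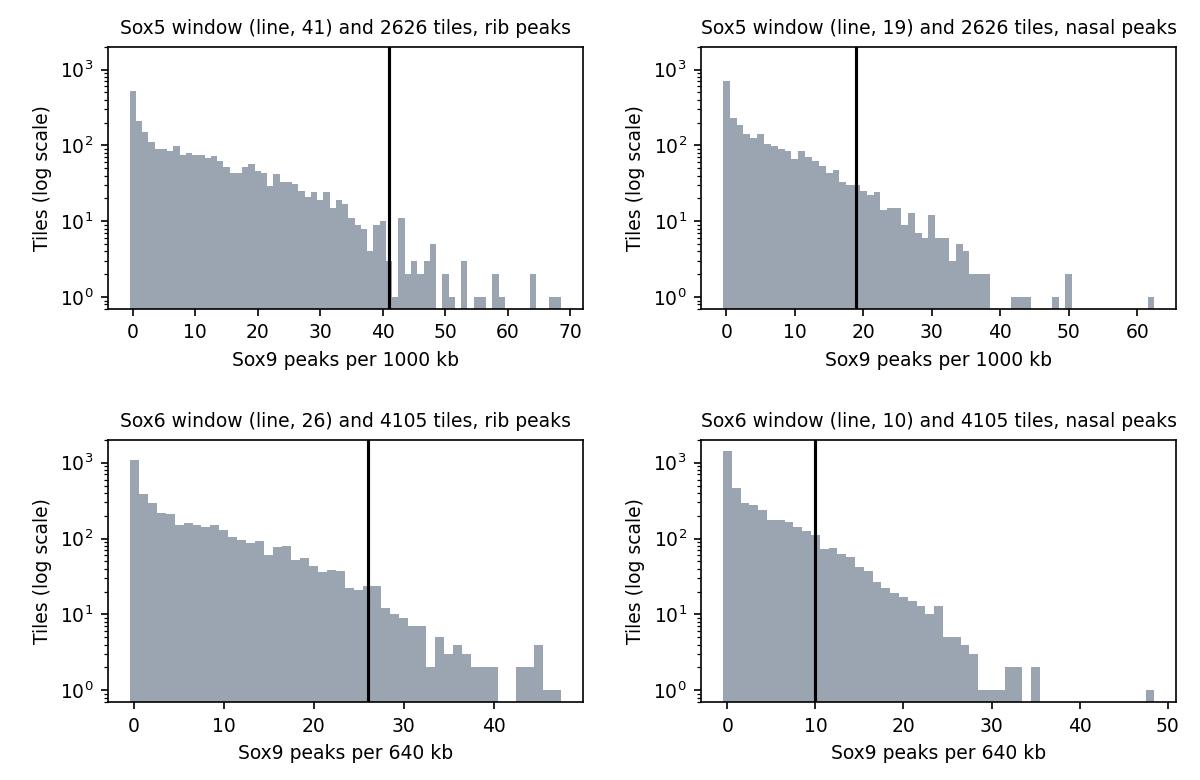
Histograms of Sox9 peaks per tile over all chromosomes (x axis, peaks per 1000 kb for Sox5 and per 640 kb for Sox6; y axis, number of tiles on a log scale), for rib peaks on the left and nasal peaks on the right. The black line marks the window: at 41 and 26 rib peaks the lines stand far in the right tail, and at 19 and 10 nasal peaks they stand less far out.

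The ratio of rib to nasal peaks was 2.16 in the Sox5 window (1.22 to 3.94) and 2.60 in the Sox6 window (1.21 to 6.04), against 1.59 over the whole lists (1.56 to 1.62). The interval of each window included the ratio of the whole lists. When the rib list was shortened to its first 17440 peaks, the length of the nasal list, the Sox5 window held 21 rib peaks and the ratio was 1.11, against 1 by construction for the whole lists. With the same shortened rib list, the Sox6 window held 17 rib and 10 nasal peaks and the ratio was 1.7. Narrowing the Sox6 window by 50 kb at each end left 19 rib and 4 nasal peaks and a ratio of 4.75.

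At Sox5, peaks of both tissues lay in the first 500 kb of the window, and beyond that point rib peaks alone were listed. The first 500 kb held 33 rib and 19 nasal peaks, and nasal peaks overlapped 15 of those rib peaks. The last 500 kb held 8 rib peaks, all of Class II, and no nasal peak. This split was chosen after the positions were seen. A count of 0 among 8 peaks allows an overlapped share of up to 37.5%, a limit that takes in the 34.4% of all Class II peaks. In bins of 100 kb, the fullest were 200 to 300 kb from the window start with 9 rib and 5 nasal peaks, and 400 to 500 kb with 9 rib and 6 nasal peaks.

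**Figure D2:**
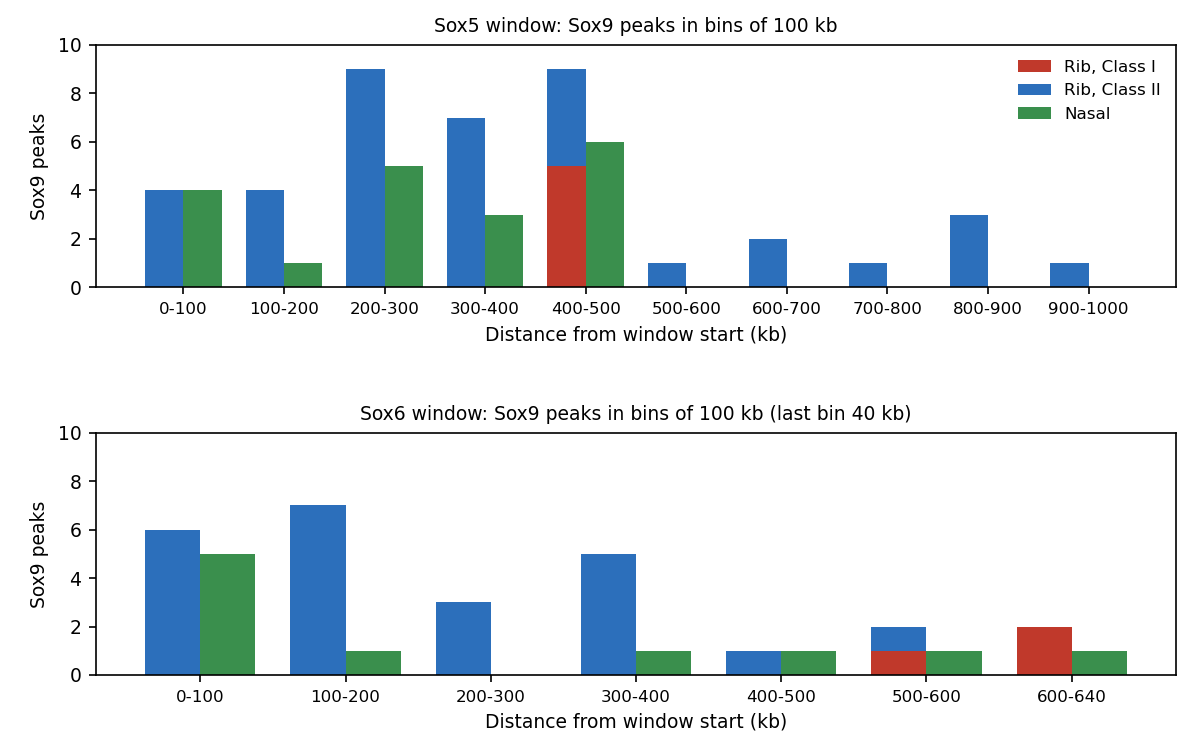
Number of Sox9 peaks (y axis) in consecutive bins of 100 kb from the window start (x axis, kb) for Sox5 above and Sox6 below, with rib peaks stacked by class on the left of each pair and nasal peaks on the right. In the Sox5 window nasal bars end at 500 kb, and in the Sox6 window 5 of the 10 nasal peaks stand in the first bin.

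The stretch without nasal peaks at Sox5 reached past the window. It ran for 536.5 kb, over chr6:144246680-144783145, and held 11 rib peaks, 9 of them inside the window and all of Class II. Of 17248 gaps between adjacent nasal peaks, 23 (0.133%) held as many rib peaks or more, and 890 were as long or longer. The corresponding stretch at Sox6 was chr7:122767819-122968905, where 201.1 kb without a nasal peak held 8 rib peaks, all of Class II. As many or more were held by 118 of the gaps (0.684%), and 2422 gaps were as long or longer. These stretches were the fullest gaps at each gene, picked after the positions were seen. A nasal list shorter than the rib list leaves more such gaps, and what the nasal library would show at a greater depth is unknown.

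Nasal peaks overlapped 15 of the 41 rib peaks at Sox5, sharing at least 1 bp, or 36.6% (22.1% to 53.1%). At Sox6 they overlapped 6 of 26, or 23.1% (8.97% to 43.7%). Over the whole rib list 42.8% of peaks were overlapped, a share inside both intervals. Seen from the nasal side, rib peaks overlapped 15 of 19 nasal peaks at Sox5, or 78.9% (54.4% to 93.9%), and 6 of 10 at Sox6, or 60% (26.2% to 87.8%). The share over the whole nasal list was 68.2%. With the rib list shortened to the nasal length, the order of Sox5 and the whole list turned, with 12 of 21 rib peaks (57.1%) overlapped at Sox5 and 51.9% over the whole list. At Sox6, 5 of 17 (29.4%) were overlapped in the shortened list. A nasal peak within 1 kb, overlapping or not, was found for 16 of 41 rib peaks at Sox5 and 9 of 26 at Sox6, against 49.9% of the rib list.

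**Figure D3:**
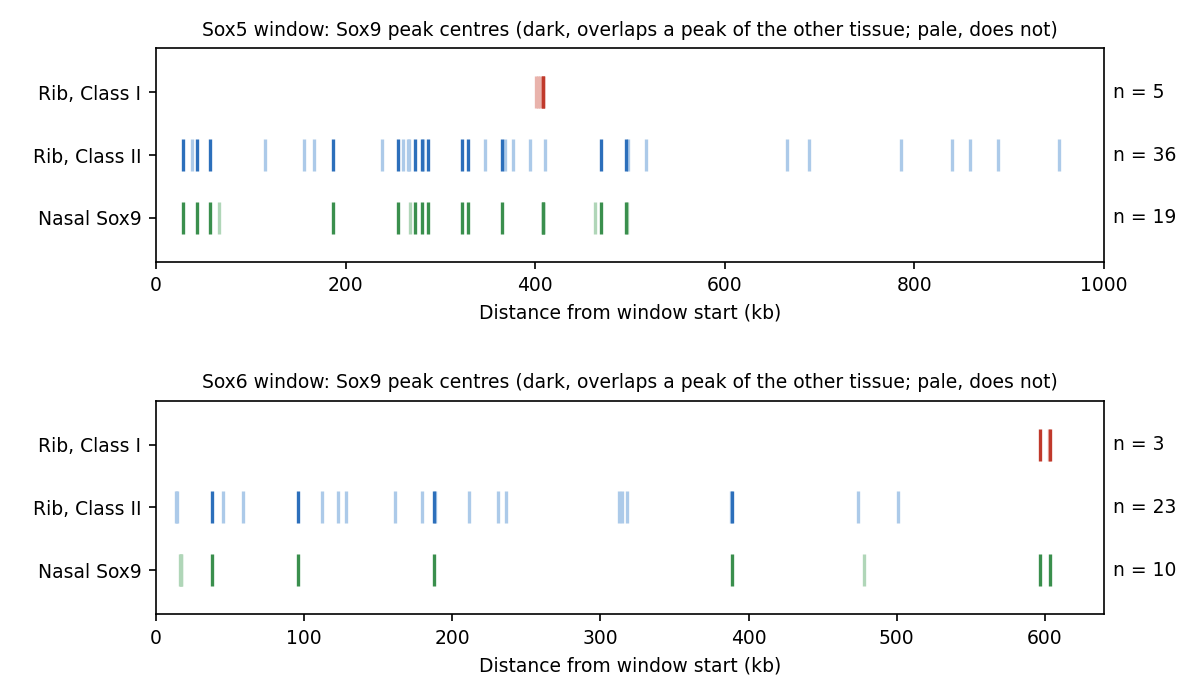
Centres of the Sox9 peaks (x axis, kb from the window start) in the Sox5 window above and the Sox6 window below, with a row each for rib Class I, rib Class II and nasal peaks. Dark strokes overlap a peak of the other tissue, pale strokes do not. Class I strokes form a single group in each window, and nasal strokes at Sox5 stop near 497 kb, where the last nasal peak lies.

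Shared peaks had centres close to each other. The median distance between the centres of a rib peak and its nasal partner was 51.5 bp over 15 pairs at Sox5 and 91 bp over 6 pairs at Sox6, against 35 bp over the 11847 overlapped rib peaks. At least 50% of both peaks was shared in 10 of the 15 pairs at Sox5 and in 2 of the 6 at Sox6. Over the whole rib list this held for 7861 of 11847 peaks.

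Class II made up most of both loci, as it did of the whole rib list. Class I held 5 of the 41 rib peaks at Sox5, or 12.2% (4.08% to 26.2%), and 3 of 26 at Sox6, or 11.5% (2.45% to 30.2%). Over the whole rib list Class I held 24.6%, a share inside the interval of each gene. Over both windows Class I held 8 of 67 rib peaks, or 11.9% (5.30% to 22.2%), and the share of the list lies above this interval. Class I peaks stood close to each other at each gene, and the interval treats them as independent. Among Class I peaks, nasal peaks overlapped 2 of 5 at Sox5 and 2 of 3 at Sox6, against 68.8% of all Class I peaks. Among Class II peaks, they overlapped 13 of 36 at Sox5, or 36.1% (20.8% to 53.8%), and 4 of 23 at Sox6, or 17.4% (4.95% to 38.8%), against 34.4% of all Class II peaks. From the nasal side, Class I peaks overlapped 2 of 19 nasal peaks at Sox5 and 2 of 10 at Sox6, against 27.0% of the nasal list. Class II peaks overlapped 13 of 19 nasal peaks at Sox5, or 68.4% (43.45% to 87.4%). At Sox6 they overlapped 4 of 10, or 40% (12.2% to 73.8%). The share of the whole nasal list was 41.2%, below the interval of Sox5 and inside that of Sox6.

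The Class I peaks inside each window stood together in a single short stretch. How often Class I peaks stand this close over the whole list was not counted. A further Class I peak lay 16.8 kb beyond the Sox6 window. At Sox5 they lay from chr6:144150872 to 144158826, at chr6:144150872-144151337, chr6:144152793-144152849, chr6:144154977-144155110, chr6:144157816-144157982 and chr6:144158401-144158826. Nasal peaks overlapped the last pair of these and none of the first 3. Those nasal peaks, chr6:144157892-144158209 and chr6:144158128-144158418, themselves shared bases. With a Class II peak on each side, the 5 formed a chain of 7 rib peaks over 15.6 kb, chr6:144144540-144160093, where a chain joins peaks spaced at most 10 kb apart, edge to edge. At Sox6 the Class I peaks were chr7:123176523-123176667, chr7:123183141-123183253 and chr7:123183762-123183871, a chain of 3 over 7.35 kb with no Class II peak. All 3 lie within 50 kb of the window's end, so a window narrowed by 50 kb holds no Class I peak at Sox6. A Sox6 window widened by 100 kb at each end holds 5 Class I peaks among 32 rib peaks (15.6%). Nasal peaks overlapped the first and the last of the 3, and the middle one lay 531 bp from a nasal peak. Whether the submitters drew Class I by distance to transcription starts is not stated, and no start site was placed on mm9 here. Whether this grouping follows from how the class was drawn was not tested.

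Sox5 held longer chains than Sox6. Chains of at least 3 rib peaks took in 21 of 41 rib peaks at Sox5, or 51.2% (35.1% to 67.1%). At Sox6 they took in 9 of 26, or 34.6% (17.2% to 55.7%). The share of the whole rib list was 28.3%, inside the interval of Sox6. The windows hold more peaks per Mb than the list, and chains, neighbours and gaps were not adjusted for this. The longest chain at Sox5 had 8 peaks, all of Class II, over 31.5 kb at chr6:144005497-144036991, with 5 nasal peaks in its span and 4 of its own peaks overlapped. Its first peak, chr6:144005497-144005600, was the second earliest of the locus in the rib list. Shorter chains of 3 Class II peaks lay at chr6:143778731-143793318, with 2 peaks overlapped, and at chr6:144114679-144127201, with 1 overlapped.

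At Sox6 the chains beside the Class I group had 3 Class II peaks each. The chain at chr7:122759137-122768733 spanned 9.60 kb and had 1 peak overlapped. The chain at chr7:122892200-122898051 spanned 5.85 kb and had none, with its nearest nasal peak 70.9 kb away. A neighbour within 10 kb was found for 25 of 41 rib peaks at Sox5 and 19 of 26 at Sox6, against 52.9% of the rib list. Among nasal peaks a neighbour was found for 14 of 19 at Sox5, or 73.7% (48.8% to 90.85%). At Sox6 it was found for 5 of 10, or 50% (18.7% to 81.3%). The share of the nasal list was 44.9%, below the interval of Sox5 and inside that of Sox6. Which of these shares lay above that of the list changed with the setting. In the first 50% of each list by place, a neighbour within 10 kb was left for 9 of 20 rib peaks at Sox5 (45%) and 4 of 14 at Sox6 (28.6%), against 39.3% of the shortened rib list. For nasal peaks it was left for 2 of 9 at Sox5 (22.2%) and 0 of 5 at Sox6, against 27.1% of the shortened nasal list. Within 5 kb, a neighbour was found for 39.0% of rib peaks at Sox5 and 42.3% at Sox6, against 39.7% of the rib list, and for 21.1% of nasal peaks at Sox5 and 30% at Sox6, against 34.9% of the nasal list. The median gap between adjacent rib peaks was 12.4 kb at Sox5 and 12.9 kb at Sox6, against 23.4 kb over the whole rib list. The widest rib gap was 148.5 kb at Sox5 (chr6:144266928-144415441) and 95.9 kb at Sox6 (chr7:123080661-123176522), where it ended at the Class I group.

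The lists carry no score, so each peak's place in its own list is given, and the labels do not say by what the lists are ordered. The median place of the members lay near the middle of each list. The median rib place was 54.7% of the way down at Sox5 and 47.1% at Sox6. In the first 10% stood 6 of 41 rib peaks at Sox5, or 14.6% (5.57% to 29.2%). At Sox6 it was 4 of 26, or 15.4% (4.36% to 34.9%). The share by construction, 10.0%, is lower and inside both intervals. Rib places at Sox5 were spread to both ends, with 13 peaks in the first 25% of the list and 15 in the last 25%. The median nasal place was 51.5% at Sox5 and 49.1% at Sox6.

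At Sox5 the 3 earliest rib peaks were overlapped by nasal peaks that also stood early. The earliest, chr6:144114679-144114820, held place 257 of 27656, and its nasal partner held place 1893 of 17440, with centres 7 bp apart. The peak at chr6:144005497-144005600 held place 366, and its partner place 1420. The peak at chr6:144245728-144245983 held place 637, and its partner place 2009. These are the sites at Sox5 that stand near the head of both lists.

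At Sox6 the earliest rib peak was not overlapped. It was chr7:122768443-122768733 at place 727, and it lay 624 bp from the nasal peak chr7:122767661-122767818 at place 4858. That nasal peak overlapped another rib peak, chr7:122767512-122767844, at the later place 12767. The next rib peaks, chr7:122617593-122617709 at place 1249 and chr7:122675524-122675667 at place 1620, were overlapped by nasal peaks at places 2686 and 1249. The nasal peak at place 1249, chr7:122675471-122675640, was the earliest of the locus. The third earliest nasal peak at Sox6, chr7:122968906-122969031 at place 4390, overlapped the rib peak at place 2115.

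Overlapped rib peaks stood earlier than the others at both genes. The median place was 16.0% for the 15 overlapped and 76.4% for the 26 other rib peaks at Sox5, and 26.9% for 6 and 60.1% for 20 at Sox6. Over the whole rib list it was 33.6% and 60.4%. In 4 equal parts of the list by place, from early to late, nasal peaks overlapped 9 of 13, 3 of 7, 1 of 6 and 2 of 15 rib peaks at Sox5. At Sox6 they overlapped 3 of 9, 2 of 5, 0 of 6 and 1 of 6. Over the whole list the shares of these parts were 68.7%, 43.9%, 32.5% and 26.2%. At Sox5 the earliest part had a share of 69.2% (38.6% to 90.9%), close to that of the list, and at Sox6 33.3% (7.49% to 70.1%), an interval that takes in the share of the list.

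**Figure D4:**
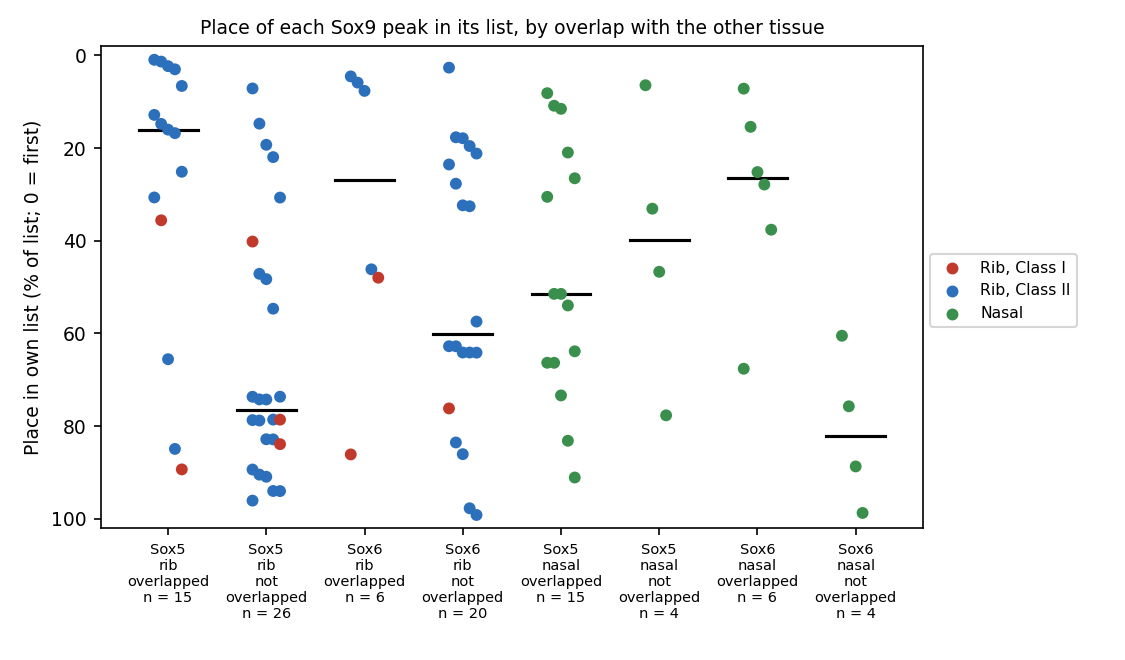
Place of each member peak in its own list (y axis, percent of the list, 0 at the head), grouped along the x axis by tissue, gene and overlap with the other tissue. Points are peaks coloured by class and black lines are medians. Overlapped rib peaks have a median place of 16.0% at Sox5 and 26.9% at Sox6, against 76.4% and 60.1% for the other rib peaks, and the groups overlap.

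Some early rib peaks had no nasal peak near them. At Sox5 the rib peak chr6:143864980-143865180 at place 1969 had its nearest nasal peak 48.1 kb away. At chr6:144637705-144637790 the rib peak at place 4070 had it 145.4 kb away. At Sox6 the rib peak chr7:122741040-122741183 at place 4883 had it 26.5 kb away. The rib peaks chr7:122702680-122702787 at place 5407 and chr7:123080467-123080660 at place 4941 had it 27.0 kb and 22.5 kb away. These 5, of which 2 lay at Sox5 and 3 at Sox6, were chosen after their values were seen, as the rib peaks of the first 20% of the list with no nasal peak within 20 kb. They were 2 of 12 such early peaks at Sox5 (16.7%) and 3 of 7 at Sox6 (42.9%), against 13.8% of the early peaks of the whole rib list, 763 of 5531. With so few early peaks at each gene, nothing is read from these shares.

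Nasal peaks without a rib peak within 1 kb numbered 3 of 19 at Sox5 and 4 of 10 at Sox6. Those at Sox5 were chr6:143816705-143816890, chr6:144018294-144018443 and chr6:144212797-144212985, with the nearest rib peak 9294 bp, 1622 bp and 6058 bp away. The earliest nasal peak at Sox5, chr6:144246483-144246679 at place 1121, shared no base with a rib peak and lay 499 bp from the rib peak at place 637. Of the 4 at Sox6, chr7:122595849-122596025, chr7:122596564-122596736 and chr7:122596923-122597290 formed a group within 1.5 kb whose nearest rib peak lay 1535 bp from its first member. The fourth, chr7:123057667-123057959, stood at place 17222 near the end of the nasal list. Over the whole nasal list, 78.1% of peaks had a rib peak within 1 kb.

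The windows decide which peaks count. The first and last rib peaks inside the Sox5 window lay 28.8 kb and 47.1 kb from its limits, and the nearest outside lay 87.2 kb before and 13.5 kb beyond, at chr6:144763407-144763557. At Sox6 the first and last rib peaks inside lay 13.8 kb and 36.2 kb from the limits, and the nearest outside 54.2 kb before and 16.8 kb beyond. The rib peak beyond the Sox6 window, chr7:123236674-123236817, was of Class I and overlapped by a nasal peak. In the RefSeq table of GRCm38.p6 the protein-coding neighbours are Etnk1 and Bcat1 for Sox5 and Insc and 1110004F10Rik for Sox6, and noncoding genes such as Sox5os3, Sox5os4 and Sox6os overlap the genes themselves. Peaks were not assigned to these or to exons and introns, which needs an mm9 annotation.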

How the data were processed

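Peak lists of 2 Sox9 ChIP-seq libraries were used, and values of the other 11 of 13 libraries, inputs and IgG control included, were not analysed here. The authors deposited 4 lists (rib, its Class I and Class II parts, nasal) as chromosome, start and end, a position unit with no other score or signal. Per the submitters' processing notes, the build was mm9; the labels do not name the aligner, peak caller or control, and the names of the deposited lists carry a false discovery rate tag whose scale is not explained in the sources used here. Class I and Class II together made up the rib list, with no peak in both.

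Members were peaks with their centre in the 2 windows. Members and lists were chosen with earlier results of these data known. Starts are printed with 1 added. Overlap meant at least 1 shared bp. Shares carry Clopper-Pearson 95% intervals, and a count of 0 a limit of 3 counts. Tiles of the window's size ran from the first base of each chromosome to its last peak. Peaks named were the 3 earliest of each list, chains of at least 3, Class I peaks, nasal peaks with no rib peak within 1 kb, widest gaps and window edges, and others are said to be chosen later. Overlap calls differed from bedtools 2.31.1 for 0 of 27656 rib peaks, and 300 of 300 simulated overlaps were found. Software was scipy 1.17.1, numpy 2.4.6, pandas 2.3.3 and matplotlib 3.10.9 under Python 3.11.15. With positions alone, depth is unknown and no test between tissues was run.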

Additional observations from a re-analysis of the deposited data

How the results depend on the processing

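Of 70 values recomputed under other settings, 49 stayed inside the interval of the value as reported and 21 moved outside it. Of the 58 with a value over all peaks of the same setting beside them, 11 lay on the other side of that value than in the report. Of these, 8 were shares with a neighbour. Requiring 50% of both peaks gave 7.69% of rib peaks shared at Sox6, against 28.4% of all rib peaks, and 52.6% and 20% of nasal peaks shared at Sox5 and Sox6, against 45.1% of all nasal peaks. Equal list lengths gave 57.1% of rib peaks shared at Sox5, against 51.9% of the shortened rib list, and 1.11 rib peaks per nasal peak, against 1. The first 50% of each list gave 100% of nasal peaks shared at Sox6 (5 of 5), against 61.0% of the shortened nasal list. A narrowed Sox6 window gave 75% (3 of 4), against 68.2% of all nasal peaks. The first 50% also put 28.6% of rib peaks at Sox6 within 10 kb of a neighbour, against 39.3% of the shortened rib list. For nasal peaks it gave 22.2% at Sox5 and 0% at Sox6, against 27.1% of the shortened nasal list. For tiles as rich as the windows it gave 3.05% (rib, Sox5), 11.6% (nasal, Sox5) and 17.1% (nasal, Sox6). Narrowing the Sox6 window by 50 kb at each end left 0% of Class I, since these peaks lie within 50 kb of its end. Shares with a neighbour grow with the distance allowed. For rib peaks they were 39.0%, 87.8% and 95.1% at 5, 25 and 50 kb for Sox5, and 42.3%, 92.3% and 100% for Sox6, against 39.7%, 71.9% and 85.2% of all rib peaks. For nasal peaks they were 21.1%, 89.5% and 94.7% for Sox5 and 30%, 60% and 60% for Sox6, against 34.9%, 63% and 78.3% of all nasal peaks. Causes were not tested. No paired analysis was possible because each group holds 1 library. Leaving out a replicate was likewise not possible. The number of peaks limits every share, and read depth is unknown.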

Other observations

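Some peaks of a window stood at nearby places in a list. At Sox5, 14 of the 41 rib peaks stood within 10 places of another rib peak of the window. An example, chosen after the places were seen, is chr6:143787659-143787853 at place 20532 with chr6:144031444-144031485 at place 20538. At Sox6 this held for 5 of 26 rib peaks. Nasal peaks gave 4 of 19 at Sox5 and 0 of 10 at Sox6. Over the whole lists, 6624 of 27656 rib peaks (24.0%) and 4254 of 17440 nasal peaks (24.4%) stood within 10 places of a peak of the same list less than 1 Mb away. The window counts pair peaks inside the same window alone, so they are not the same measure as these shares.

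Some shared peaks stood late in at least 1 list. The rib peak chr6:143778731-143778933, the first of the Sox5 window, held place 3547 of 27656, and its nasal partner chr6:143778800-143778971 held place 15887 of 17440. The rib peak chr6:144072918-144073113 held place 23487, and its nasal partner chr6:144073016-144073177 held place 11568. These pairs were chosen after their places were seen, and such pairs were not counted over the whole lists.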
